A study of Mus musculus with 36 samples.

Results

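RNA levels of 8 costimulatory and adhesion molecules, Cd40, Cd80, Cd86, Cd83, Cd274, Icam1, Vcam1 and Cd44, were followed in cultured mouse microglia and astrocytes given stimuli that act through the kinase RIPK1. They were chosen with earlier results of these data known and picked by gene symbol from the deposited annotation. All 8 were listed and tested in both tables, among 15385 microglial and 14551 astrocyte genes. Cells came from brains of C57BL/6 pups aged 2 to 4 days, which were pooled and grown as mixed glia for 12 days. Microglia were then taken out by CD11b selection, and astrocytes were selected from what remained. Both were treated for 4 h before polyadenylated RNA was sequenced. Every group came from the same strain, and treatments are given by the short names of the study. T is TNF, 5z is the TAK1 inhibitor 5z-7, S is a Smac mimetic, Z is the pan-caspase inhibitor zVAD, and N is Nec-1s, which inhibits the RIPK1 kinase. The combination T/5z is used to induce apoptosis through RIPK1 and T/S/Z to induce necroptosis in cells capable of it, and the files hold no measure of cell death. Microglia received DMSO (the vehicle), Nec-1s alone, or either combination with or without Nec-1s, in 6 treatments of 4 libraries (24 in all). Astrocytes received the same treatments except the pair with T/5z, in 4 treatments of 3 libraries (12 in all). TNF alone, or a single inhibitor other than Nec-1s, is not among these groups. The general methods of the study describe replicates of cultured cells as coming from different litters, but the labels do not tie a library to a litter. The p-values measure the spread between libraries.

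CD80 and CD86 are the ligands through which antigen-presenting cells engage CD28 and CTLA-4 on T cells, and CD274 (PD-L1) engages the inhibitory receptor PD-1. CD40 is the TNF receptor family member that answers CD40 ligand on activated T cells, and CD83 is a surface protein of mature dendritic cells and other activated antigen-presenting cells. ICAM1 and VCAM1 are immunoglobulin-type adhesion molecules bound by leukocyte integrins, and CD44 is the main receptor for hyaluronan. In the inflamed brain, microglia are the resident cells best known for costimulatory molecules, and astrocytes are a known source of ICAM1 and VCAM1. Transcription of several of these genes is classically driven by NF-κB, which TNF activates.

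The genes lie on mouse build GRCm38 at chr2:165055627-165072948 (Cd40, ENSMUSG00000017652, plus strand), chr16:38455561-38496335 (Cd80, ENSMUSG00000075122, plus strand), chr16:36603869-36666077 (Cd86, ENSMUSG00000022901, minus strand), and chr13:43784775-43803132 (Cd83, ENSMUSG00000015396, plus strand). The remaining positions are chr19:29367455-29388095 (Cd274, ENSMUSG00000016496, plus strand), chr9:21015985-21028817 (Icam1, ENSMUSG00000037405, plus strand), chr3:116109949-116129688 (Vcam1, ENSMUSG00000027962, minus strand) and chr2:102811141-102901665 (Cd44, ENSMUSG00000005087, minus strand). All are annotated as protein coding, and these positions span exons and introns, while the measured values refer to exons.

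The promoters of 3 genes are shown because these genes were higher with T/S/Z in both cell types. Of the 8 genes, 4 had a promoter window in the RefSeq table (GRCm38.p6), and the fourth, Cd80, is not printed because it did not rise with T/S/Z in astrocytes. Each window is the 250 bases before the RefSeq start, read 5′ to 3′ on the strand of the gene, and capitals mark matches to 2 patterns.
Icam1 (chr9:21015690-21015939, plus strand): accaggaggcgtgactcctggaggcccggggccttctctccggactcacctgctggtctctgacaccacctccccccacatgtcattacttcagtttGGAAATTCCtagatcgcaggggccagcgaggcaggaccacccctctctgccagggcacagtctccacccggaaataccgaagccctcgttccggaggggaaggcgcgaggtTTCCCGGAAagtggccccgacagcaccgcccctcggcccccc
Cd274 (chr19:29367188-29367437, plus strand): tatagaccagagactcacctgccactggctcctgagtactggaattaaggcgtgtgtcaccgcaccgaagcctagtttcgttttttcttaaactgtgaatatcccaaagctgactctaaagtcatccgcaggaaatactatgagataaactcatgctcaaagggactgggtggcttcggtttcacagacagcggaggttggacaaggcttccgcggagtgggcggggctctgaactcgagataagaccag
Cd44 (chr2:102901666-102901915, minus strand): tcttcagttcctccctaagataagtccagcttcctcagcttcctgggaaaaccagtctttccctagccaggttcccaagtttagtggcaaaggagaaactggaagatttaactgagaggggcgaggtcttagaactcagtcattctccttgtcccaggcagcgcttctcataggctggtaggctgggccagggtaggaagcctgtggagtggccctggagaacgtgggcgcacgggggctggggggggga
The first pattern, GGANNTTCC on either strand, is a form of the site bound by NF-κB. It was found in the Icam1 window as GGAAATTCC (bases -153 to -145 before the start), and 3.59% of 32851 RefSeq windows of the same length held it. The second, TTCNNNGAA, is the core bound by STAT factors, and it was found in the Icam1 window as TTCCCGGAA (bases -42 to -34). That pattern was in 7.02% of all windows. The matches did not overlap, no match was found in the Cd274, Cd44 or Cd80 windows, and the patterns were chosen with these windows in view. They describe letters only, and binding was not measured.

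Values are log2(FPKM + 1), where FPKM is the fragment count scaled to exon length and sequencing depth, so that levels of different genes can be compared per length. Each table was normalized on its own, and the labels name different sequencing providers for microglia and astrocytes, while the methods of the study name 1 for both. The annotations of the tables also give different exon lengths for 6 of the 8 genes, among them Vcam1 (4983 bases for microglia, 8870 for astrocytes), Icam1 (2535 and 4360) and Cd86 (2539 and 3661), which can shift FPKM between the tables. Levels of both cell types are therefore set side by side with no test. A gene passed in a comparison when limma gave a Benjamini-Hochberg adjusted p under 0.05 over all tested genes (10524 in microglia, 13842 in astrocytes) and the fold change exceeded 1.5. Because 1 is added before the logarithm, fold changes of genes with low FPKM come out too small. Library depth was not in the files. From the steps between low values, Cd83 in DMSO astrocytes rested on about 15 to 25 reads or read pairs per library, the fewest of any member, and Vcam1 in T/S/Z astrocytes on about 182123 to 208810. In the microglial table the per-gene means of replicates 1 to 3 had been set to those of replicate 4, which also leaves some values below 0. Part of the spread between microglial replicates had thus been removed before the tests, and the microglial p-values measure what was left.

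The cultures were checked against marker lists. In microglia, all 12 microglial markers were listed, and their summed level stayed between 9310 and 11400 FPKM in all 24 libraries, with Siglech near 0 (0.079 FPKM in DMSO). In astrocytes the 10 astrocyte markers summed to 3090 to 3650 FPKM and were led by Gfap, and 3 of the 10 fell with T/S/Z. The astrocyte table also held microglial markers at 0.348% to 5.09% of their microglial level in DMSO (9 markers of at least 20 FPKM), and fibroblast and mural cell markers that summed to 926 to 1120 FPKM. Acta2 made up most of that last sum, at 592 FPKM in DMSO. Of 8 endothelial markers, 4 were analysed in microglia (sum at most 4.23 FPKM) and 5 in astrocytes. Markers of dendritic cells and lymphocytes were low but moved with the stimuli. Over 3 of 8 analysed in microglia they summed to 0.159 to 0.725 FPKM in DMSO, 2 to 2.52 with T/5z and 1.63 to 2.01 with T/S/Z. In astrocytes the 1 analysed, Zbtb46, went from 2.09 to 2.43 FPKM in DMSO to 5.5 to 5.87 with T/S/Z. Zbtb46, a transcription factor of dendritic cells, was also the 1 tested in microglia and passed as higher than DMSO with every stimulus, with or without Nec-1s. The part of such cells in the rises of Cd40, Cd83 and the other genes was not tested. Neuronal markers summed to 0.506 to 4.21 FPKM in microglia and 100 to 128 in astrocytes, and oligodendrocyte lineage markers to 44.1 to 59.2 and 116 to 208. In DMSO microglia, replicate 4 had the lowest value of every member but Cd44, where it had the highest. Among them were Vcam1 (1.5 against 2.16 to 2.49) and Cd274 (2.36 against 2.71 to 3.13). For both, replicate 4 was the highest of 4 with T/5z (6.22 and 4.73) and with T/S/Z (4.74 and 4.82). Replicate means over treatments had been made equal, so a low value in 1 treatment goes with higher values in others, relative to the other replicates.

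In unstimulated cells the order of these molecules by level was not the same in the tables of both cell types. In DMSO microglia, Cd44 (6.38 ± 0.087, SD, n = 4) and Cd83 (6.13 ± 0.21) had the highest levels and their libraries overlapped. Cd86 (4.87 ± 0.048) and Icam1 (4.86 ± 0.14) came next, also overlapping. Cd274 (2.81 ± 0.35), Vcam1 (2.12 ± 0.43) and Cd40 (1.67 ± 0.24) were low and each overlapped its neighbour in this order, and Cd80 (1.29 ± 0.081) lay below them all. In DMSO astrocytes the order was different. Cd44 (7.32 ± 0.098, n = 3) and Vcam1 (6.40 ± 0.19) led, followed by Cd80 (3.45 ± 0.093) and Icam1 (3.09 ± 0.091), with no overlap between neighbours. Cd40 (1.18 ± 0.35), Cd274 (0.96 ± 0.084) and Cd86 (0.94 ± 0.21) overlapped, and Cd83 was lowest at 0.46 ± 0.098. As FPKM of the mean, Vcam1 was 83.3 in astrocytes and 3.36 in microglia, and Cd80 was 9.93 and 1.44. Cd86 was the other way round, at 0.918 in astrocytes and 28.2 in microglia, and so was Cd83, at 0.372 and 69.0. The astrocyte levels of Cd86 (3.26% of the microglial level) and Cd83 (0.539%) lay inside the range of the microglial markers given above, and how far residual microglia account for them was not tested.

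**Figure D1:**
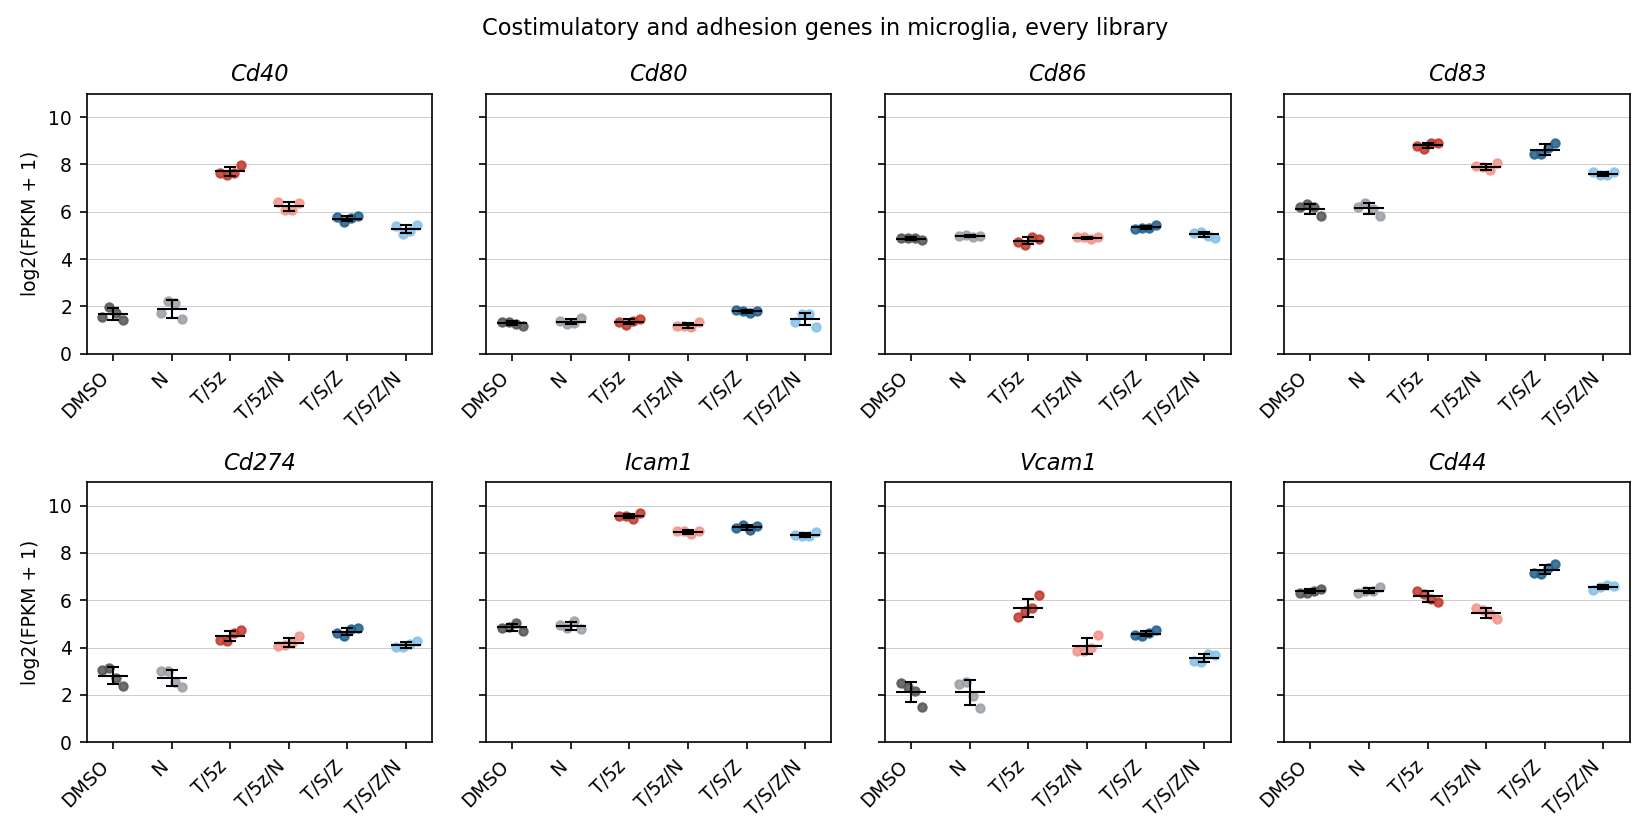
Level of each gene in every microglial library, as log2(FPKM + 1) on the vertical axis, by treatment on the horizontal axis. Points are the 4 libraries of a treatment, and black bars are the mean and SD. Icam1 lies between 8.95 and 9.67 in the 8 libraries given a stimulus alone and between 4.71 and 5.06 in the 4 DMSO libraries. Cd80 stays between 1.19 and 1.85 in these 12 libraries.

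Whether Nec-1s by itself changed these genes was asked first. None of the 8 passed in microglia or in astrocytes. In microglia 0.0% of all tested genes passed limma in this comparison, where 892 had an unadjusted p under 0.05 and 15 of these the fold change as well, and in astrocytes 0.0144% passed. At an unadjusted p under 0.05 and no fold minimum, 2 members stood out in microglia, Cd40 (+0.23, 95% interval 0.04 to 0.41) and Cd86 (+0.10, 0.01 to 0.19), and 1 in astrocytes, Icam1 (+0.21, 0.01 to 0.42). The adjusted p of these 3 were 0.543, 0.571 and 0.857 by limma. At these replicate numbers the intervals of the 8 genes reached from -0.21 to 0.41 in microglia and from -0.46 to 0.42 in astrocytes.

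T/5z and T/S/Z were then each compared with DMSO in microglia. T/5z raised 5 of the 8 genes, namely Cd40, Icam1, Vcam1, Cd83 and Cd274, while Cd80, Cd86 and Cd44 did not pass. T/S/Z raised the same 5 genes and Cd44. No member passed as lower with either stimulus. Of all tested genes, 24.4% passed after T/5z (11.1% higher, 13.3% lower) and 29.6% after T/S/Z (12.2% higher, 17.5% lower). This balance depended on the scaling. With T/5z 1167 genes were higher and 1396 lower, and 1360 and 1177 after each library was centred on its median. With T/S/Z the counts were 1280 and 1838, and 1564 and 1406 after centring. Over the 8 members the median log2 change was 2.18 (T/5z) or 2.16 (T/S/Z), beside -0.06 and -0.08 over all genes. As the members were chosen with earlier results known, these medians are a description. The stimuli share the DMSO libraries, so their rises are not independent of each other.

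On the log2 scale with 1 added, Cd40 changed most of the members with T/5z, and second to Icam1 with T/S/Z. That second place depends on the added 1. With T/S/Z, Cd40 went from 2.19 to 51.6 FPKM, by a larger factor than Icam1, which went from 28.1 to 540. In DMSO the Cd40 libraries stood at 1.56, 1.99, 1.71 and 1.43, with T/5z at 7.64, 7.56, 7.63 and 7.98, and with T/S/Z at 5.76, 5.55, 5.73 and 5.82. The 3 groups did not overlap, and every T/5z library lay above every T/S/Z library. The rise was 6.03 (SE 0.14, limma adjusted p 4.42e-07) with T/5z and 4.05 (SE 0.12, adjusted p 2.31e-07) with T/S/Z, each in 4 of 4 pairs. From a level near the bottom of the list, Cd40 thereby reached 207 FPKM (T/5z) or 51.6 FPKM (T/S/Z). Set directly against T/5z, T/S/Z gave 1.98 less Cd40 (95% interval of the change -2.12 to -1.84, adjusted p 3.63e-06).

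Icam1, the ligand of the integrin LFA-1, became the most abundant of the 8 with both stimuli. Its libraries stood at 4.84, 4.85, 5.06 and 4.71 in DMSO, at 9.56, 9.58, 9.44 and 9.67 with T/5z, and at 9.05, 9.17, 8.95 and 9.14 with T/S/Z. All stimulated libraries were far above DMSO, and the T/5z libraries all lay above those given T/S/Z. The rises were 4.70 (SE 0.088, adjusted p 3.65e-07) and 4.22 (SE 0.085, adjusted p 5.35e-08), to 756 and 540 FPKM. The difference between stimuli, -0.48 (SE 0.048, adjusted p 0.000307), was smaller than the fold minimum, and passed at -0.73 after quantile normalization (adjusted p 5.03e-05). The annotation marks Icam1, Vcam1 and Cd44 in the microglial table as confounded, a mark it does not define, and lists the antisense gene Gm47079 over Icam1 at a mean log2 value of 0.06.

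Vcam1, the ligand of the integrin that pairs the Itga4 and Itgb1 chains, rose by 3.57 after T/5z (SE 0.27, adjusted p 3.71e-05). After T/S/Z its rise was 2.46 (SE 0.18, adjusted p 1.24e-05). The T/5z libraries ran from 5.31 to 6.22 around 50.6 FPKM and the T/S/Z libraries from 4.47 to 4.74 around 23.0 FPKM, against 1.5 to 2.49 in DMSO. T/S/Z gave 1.10 less Vcam1 than T/5z (SE 0.10, adjusted p 0.000237, 4 of 4 pairs). Astrocyte markers moved in the same direction in these libraries. Of 7 astrocyte markers tested in microglia, 5 rose with each stimulus and 5 fell when Nec-1s was added to it, and their sum over the 9 listed was 9.26 to 11.3 FPKM in DMSO, 15.4 to 27.2 with T/5z and 16.7 to 25.6 with T/S/Z. That sum was 0.506% to 0.828% of its level in T/S/Z astrocytes, while microglial Vcam1 was 2.31% of the astrocyte level with T/S/Z, and the part of carried-over astrocyte RNA in the microglial Vcam1 rise was not tested. Fibroblast and mural cell markers summed to 7.13 to 9.17 FPKM in DMSO microglia, 13.3 to 24.4 with T/5z, where all 4 tested rose, and 5.98 to 10.2 with T/S/Z, where none of the 4 passed. Their part in the larger Vcam1 level with T/5z was not tested either.

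Cd83 and Cd274 rose with both stimuli. Cd83 went from 5.82 to 6.31 in the DMSO libraries to 8.67 to 8.91 with T/5z (+2.69, SE 0.11, adjusted p 2.23e-06) and 8.44 to 8.92 with T/S/Z (+2.50, SE 0.14, adjusted p 3.56e-06). Cd274, the PD-1 ligand, went from 2.36 to 3.13 to 4.29 to 4.73 with T/5z (+1.67, SE 0.20, adjusted p 0.000292) and 4.48 to 4.82 with T/S/Z (+1.86, SE 0.17, adjusted p 3.88e-05). For neither gene did the stimuli themselves differ past the fold minimum. The difference of T/S/Z from T/5z was -0.19 (95% interval -0.34 to -0.03) for Cd83 and +0.19 (0.06 to 0.32) for Cd274.

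Cd44 separated the stimuli. With T/S/Z its libraries stood at 7.15, 7.11, 7.35 and 7.53, above all DMSO libraries (6.32, 6.30, 6.41 and 6.49), and with T/5z at 6.40, 6.28, 6.05 and 5.91, which overlapped DMSO. The rise with T/S/Z was 0.91 (SE 0.055, adjusted p 4.98e-06) and the change with T/5z -0.22 (SE 0.11, adjusted p 0.117). T/S/Z against T/5z gave +1.13 (SE 0.14, adjusted p 0.000811, 4 of 4 pairs), and Cd44 was the 1 member of 8 that was higher in this comparison, while Cd40 and Vcam1 were lower. Of all genes 9.83% passed in it (5.42% higher, 4.42% lower). After quantile normalization the Cd44 rise with T/S/Z was 0.57 and no longer exceeded the fold minimum.

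Neither gene of the B7 pair passed, but the call of Cd80 with T/S/Z depended on the scaling. Cd86 had 4.80 to 4.91 in DMSO, 4.61 to 4.92 with T/5z and 5.28 to 5.44 with T/S/Z, so the T/S/Z libraries lay above the rest. Its change was -0.09 (95% interval -0.25 to 0.06) with T/5z and +0.47 (0.33 to 0.61, adjusted p 0.000231) with T/S/Z. Cd80 changed by +0.06 (-0.17 to 0.29) and +0.50 (0.31 to 0.69, adjusted p 0.000822). The T/S/Z changes of both had a small adjusted p but were below the fold minimum of 1.5, at 1.39 and 1.42 times. The Cd80 change with T/S/Z was 0.72 after quantile normalization (adjusted p 0.000155) and 0.60 after median centring (adjusted p 0.000317), and passed in both. Against T/5z, T/S/Z gave +0.57 of Cd86 and +0.44 of Cd80 (adjusted p 0.000483 and 0.00532, 4 of 4 pairs each), also under the fold minimum, which Cd86 exceeded at 0.60 after median centring and at 0.62 without replicate 3.

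**Figure D2:**
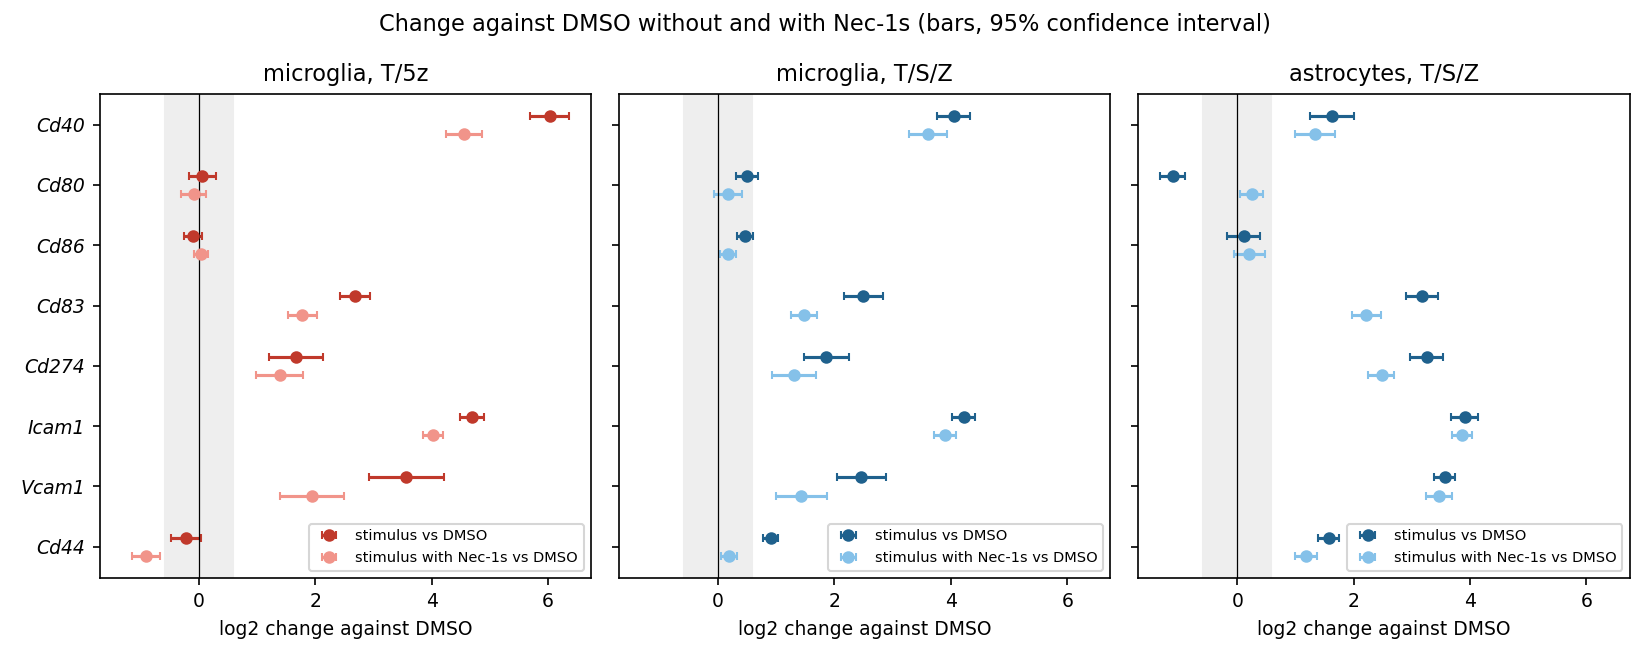
Log2 change of each gene against DMSO (horizontal axis) with the stimulus alone (dark points) and with the stimulus and Nec-1s (light points), for T/5z and T/S/Z in microglia (n = 4) and T/S/Z in astrocytes (n = 3). Bars are 95% confidence intervals and the grey band is a fold change of up to 1.5. Light points lie left of dark ones for most raised genes, and Cd80 in astrocytes is the 1 gene whose dark point lies left of the band.

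Which part of these changes needed the kinase was asked by adding Nec-1s to each stimulus. With T/5z, Nec-1s lowered 5 of the 8 genes, Vcam1, Cd40, Cd83, Cd44 and Icam1, and raised none past the threshold, where 7.16% of all genes passed (4.52% lower, 2.64% higher). In the presence of T/S/Z, it lowered 3, Vcam1, Cd83 and Cd44, where 12.1% of all genes passed (6.72% lower, 5.35% higher). Over all genes these were 707 lower and 563 higher, and 862 and 351 after median centring. Most of the raised genes stayed above DMSO under Nec-1s. With T/5z/N, the 5 genes raised by T/5z were still higher than DMSO and Cd44 was lower (12.8% of all genes passed, 6.16% higher and 6.69% lower). For T/S/Z/N, 5 of the 6 raised genes were higher (14.1% of all genes passed, 6.20% higher and 7.87% lower), and Cd44 (+0.19, adjusted p 0.0288) stayed under the fold minimum.

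The largest loss with T/5z was that of Vcam1, while with T/S/Z the losses of Vcam1 and Cd83 were nearly equal (-1.03 and -1.02). With T/5z/N the Vcam1 libraries stood at 3.87, 3.85, 4.00 and 4.55, below every T/5z library, a change of -1.62 (SE 0.053, limma adjusted p 6.79e-07, 4 of 4 pairs). With T/S/Z/N they stood at 3.43, 3.38, 3.74 and 3.68, a change of -1.03 (SE 0.056, adjusted p 9.36e-06) from T/S/Z. As a share of the log2 rise, Nec-1s took back 45.5% of Vcam1 with T/5z (35.4% to 52.8% in single pairs) and 41.8% with T/S/Z. The share of Cd44 with T/S/Z was larger, at 79.6%. The astrocyte markers of these libraries fell too, to sums of 10.6 to 11.1 FPKM with T/5z/N and 6.73 to 7.86 with T/S/Z/N. The fibroblast and mural cell markers had sums from 7.8 FPKM upwards with T/5z/N, all below the lowest T/5z library at 13.3, where 2 of 4 tested were lower than with T/5z, and summed to 3.17 to 5.96 with T/S/Z/N, where 1 of 4 was lower than with T/S/Z. The part of either in the Vcam1 losses was not tested.

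Cd40 lost more with T/5z than with T/S/Z. In T/5z/N its libraries stood at 6.40, 6.07, 6.08 and 6.35, a change of -1.47 (SE 0.063, adjusted p 2.05e-06). In T/S/Z/N they stood at 5.40, 5.08, 5.20 and 5.46, a change of -0.43 (SE 0.047, adjusted p 0.0002) under the fold minimum. Both groups lay below their stimulus in 4 of 4 pairs and far above DMSO. The difference between these Nec-1s effects was tested as an interaction and was +1.04 (T/S/Z minus T/5z, SE 0.081, adjusted p 1.07e-06). Cd40 and Vcam1 (+0.59, SE 0.14, adjusted p 0.00716) were the 2 members that passed in this test, in which 6.47% of all genes passed (2.70% positive, 3.77% negative). Vcam1 lay just past the fold minimum and fell short of the threshold in several other fits, with adjusted p of 0.0683 with no replicate block, 0.215 with all groups in the fit and 0.0538 without replicate 3. Without replicate 4 its difference was 0.58, under the fold minimum.

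Cd83 was lowered by nearly the same amount in both settings. The change was -0.90 (SE 0.064, adjusted p 2.14e-05) with T/5z and -1.02 (SE 0.082, adjusted p 5.59e-05) with T/S/Z, which took back 33.7% and 40.8% of the rise. The difference between the effects was -0.11 (95% interval -0.34 to 0.11). Icam1 changed least in proportion among the strongly raised genes. It was lowered by 0.68 on the log2 scale (SE 0.044, adjusted p 1.44e-05) with T/5z, 14.4% of its rise, and its change with T/S/Z was -0.32 (adjusted p 0.00258), which is 7.53% of the rise and under the fold minimum. Cd274 changed by -0.27 and -0.55 (adjusted p 0.00255 and 6.35e-05), both under the fold minimum, and all 4 pairs were lower in each. After median centring the T/S/Z value was -0.63 and passed.

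Cd44 went below its starting level with 1 of the stimuli. With T/5z/N its libraries stood at 5.67, 5.59, 5.44 and 5.19, below all DMSO and all T/5z libraries. The change was -0.69 (SE 0.039, adjusted p 7.42e-06) from T/5z and -0.90 (SE 0.10, adjusted p 0.000195) from DMSO. With T/S/Z/N they stood at 6.43, 6.58, 6.64 and 6.60, a change of -0.72 (SE 0.066, adjusted p 9.21e-05) from T/S/Z, which took back 79.6% of the rise. The Nec-1s effects on Cd44 differed by -0.04 (95% interval -0.41 to 0.34) between the stimuli. After quantile normalization the loss with T/S/Z/N was -0.48 and did not exceed the fold minimum. Cd80 and Cd86 did not pass with Nec-1s in either setting, and their changes lay between -0.33 and 0.13. With T/S/Z/N the adjusted p was 0.0414 for Cd80 (-0.33) and 0.00602 for Cd86 (-0.30), both under the fold minimum.

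**Figure D3:**
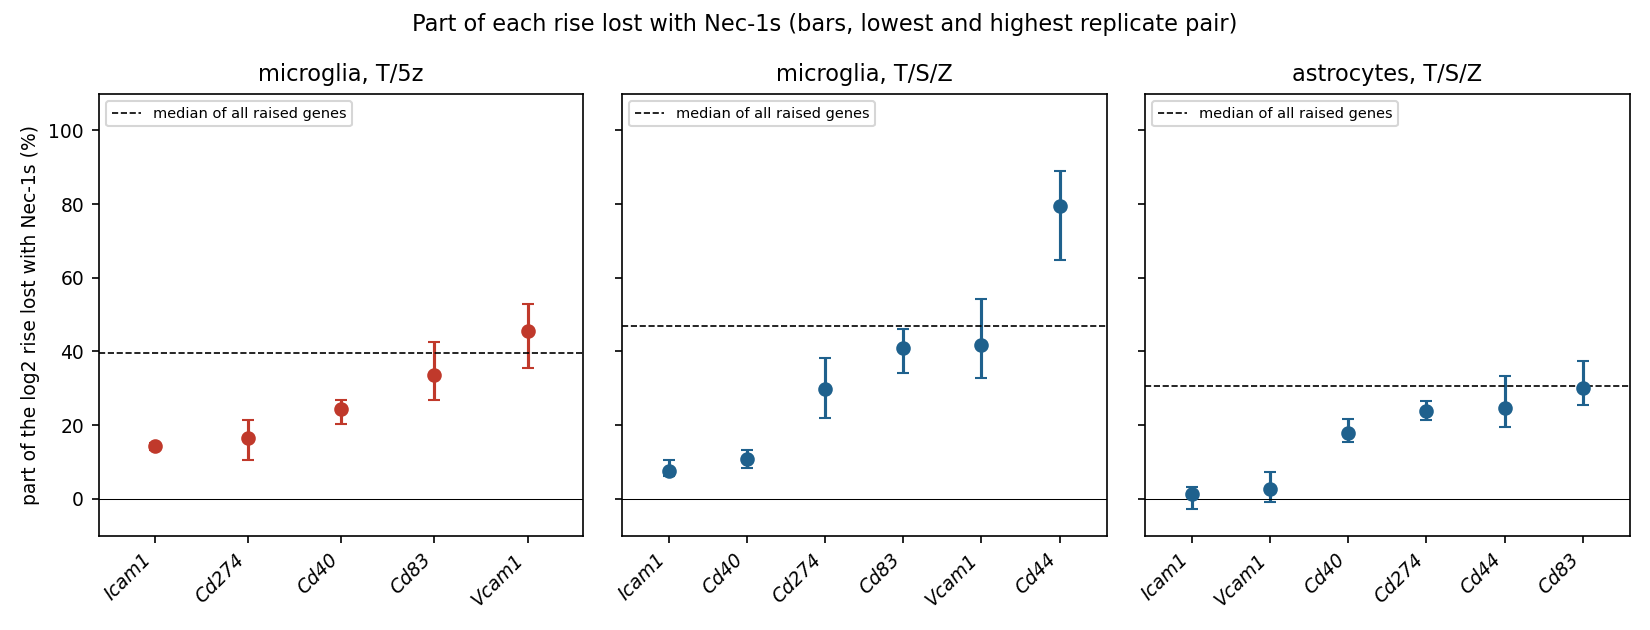
Share of the log2 rise over DMSO that was lost when Nec-1s was added (vertical axis, percent) for each gene that the stimulus raised. Points are the share of the mean rise, bars run from the lowest to the highest replicate pair, and the dashed line is the median over all genes raised by that stimulus. Icam1 has the lowest share in all 3 panels, at 14.4%, 7.53% and 1.24%.

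The shares of the members can be read beside those of all raised genes. Over all 1167 genes raised by T/5z the median share taken back was 39.6%, and the 5 members had a median of 24.5%. For T/S/Z these values were 47.0% over 1280 genes and 35.2% over 6 members. In both settings 1 member lay above the median of all raised genes, Vcam1 with T/5z and Cd44 with T/S/Z. The share uses the stimulated libraries both in the rise and in the loss, and it is given as a description. The Nec-1s effect was also set against its effect in unstimulated cells by an interaction. By that test 5 members were lower with T/5z (Cd40, Vcam1, Cd83, Icam1 and Cd44), where 7.52% of all genes passed (4.50% lower, 3.01% higher), in counts 474 and 317, or 572 and 224 after median centring. With T/S/Z 4 were lower (Cd83, Vcam1, Cd44 and Cd40), where 12.1% of all genes passed (6.66% lower, 5.40% higher), in counts 701 and 568, or 867 and 335 after median centring. The Cd40 value with T/S/Z, -0.66 (SE 0.22, adjusted p 0.0281), lost its call without replicate 1 (-0.70, adjusted p 0.0683) or without replicate 3 (-0.55, adjusted p 0.141), with quantile normalization (-0.57, adjusted p 0.0596) and, by its size, with a pseudocount of 5 (-0.51). The Cd44 value, -0.75, lost it with quantile normalization (-0.50), and the Vcam1 value, -1.01, lost it without replicate 2 (-0.91, adjusted p 0.0504).

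**Figure D4:**
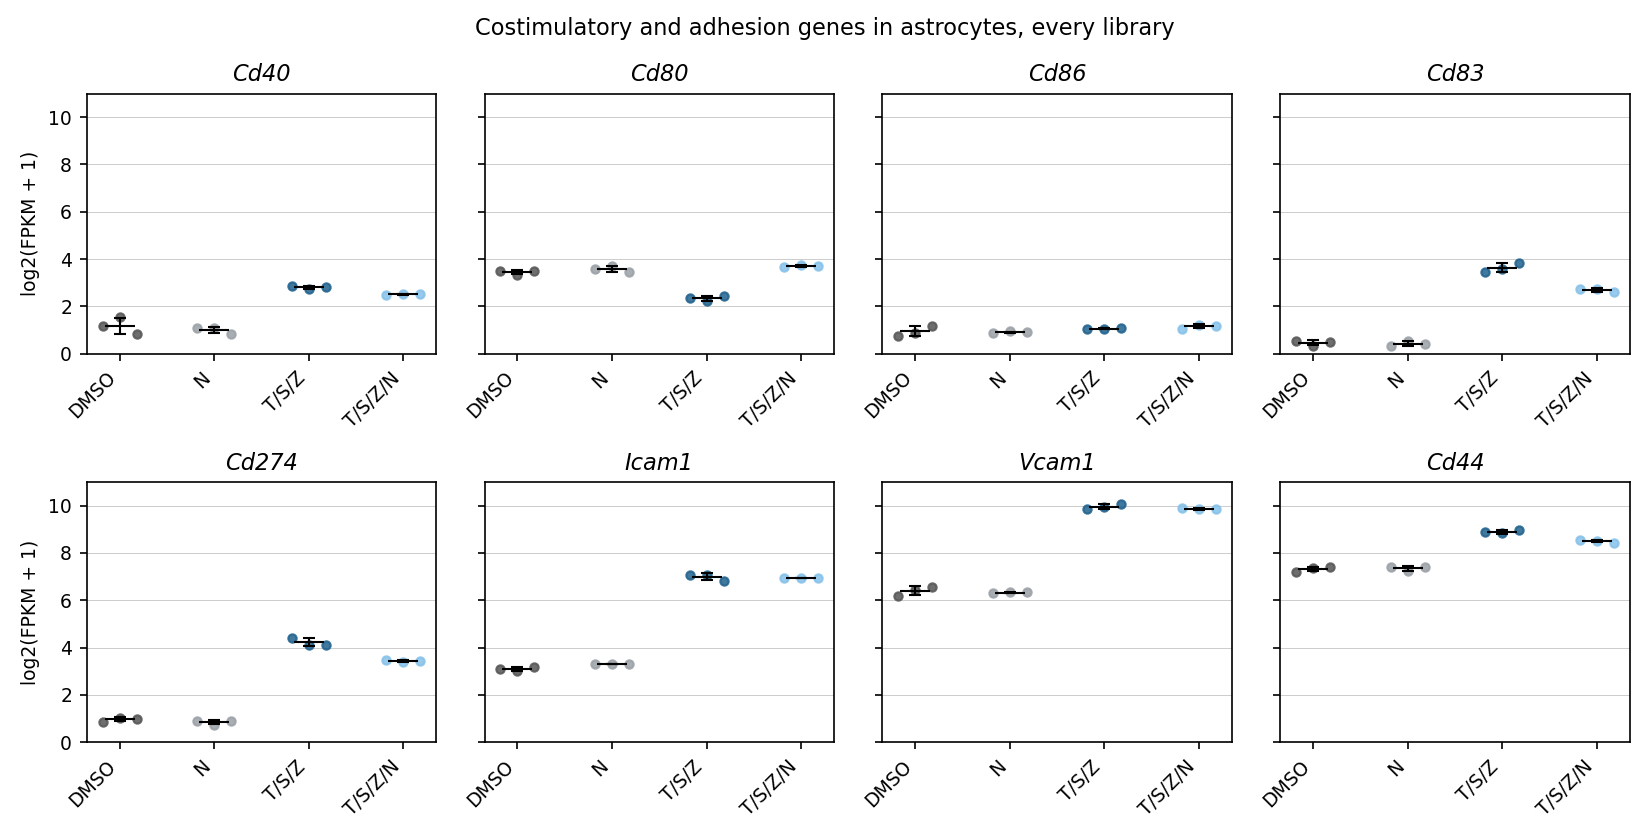
Level of each gene in every astrocyte library, as log2(FPKM + 1) on the vertical axis, by treatment on the horizontal axis. Points are the 3 libraries of a treatment, and black bars are the mean and SD. Vcam1 lies between 9.84 and 10.09 and Icam1 between 6.83 and 7.08 in all 6 stimulated libraries, while Cd80 is low in the 3 T/S/Z libraries alone.

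In astrocytes T/S/Z raised 6 of the 8 genes and lowered 1, where 15.4% of all genes passed (6.39% higher, 8.99% lower), in counts 885 and 1245, or 999 and 917 after quantile normalization. Icam1, Vcam1, Cd274, Cd83, Cd40 and Cd44 rose, Cd80 fell, and Cd86 did not pass. The median log2 change was 2.41 over the members and -0.11 over all genes, again as a description. By level the adhesion molecules were the highest. Vcam1 reached 997 FPKM, Cd44 474 and Icam1 127, while Cd274, Cd83 and Cd40 reached 17.6, 11.4 and 5.98.

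Vcam1 rose from 6.19, 6.44 and 6.57 in DMSO to 9.87, 9.93 and 10.09 with T/S/Z (+3.57, SE 0.078, limma adjusted p 3.15e-07). Icam1 rose from 3.08, 3.00 and 3.18 to 7.08, 7.08 and 6.83 (+3.91, SE 0.098, adjusted p 4.80e-07). Cd44 rose from 7.21, 7.36 and 7.39 to 8.87, 8.83 and 8.97 (+1.57, SE 0.078, adjusted p 1.30e-05). In none of these did the groups overlap, and the order of the adhesion molecules changed, with Vcam1 above Cd44 after T/S/Z. The annotation of the astrocyte table marks these 3 genes and Cd274 as confounded.

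Cd274 rose from 0.87, 1.03 and 0.99 to 4.41, 4.13 and 4.11 (+3.26, SE 0.12, adjusted p 3.14e-06), and Cd83 from 0.53, 0.34 and 0.50 to 3.47, 3.59 and 3.84 (+3.18, SE 0.12, adjusted p 3.18e-06). Cd83 reached the low-value filter in none of the 6 DMSO and Nec-1s libraries, and was tested only because its stimulated libraries were high, and with no filter its rise was also 3.18. Cd40 rose less, from 1.17, 1.53 and 0.83 to 2.87, 2.72 and 2.82 (+1.63, SE 0.16, adjusted p 0.000308). After T/S/Z the Cd274 level in FPKM was 72.1% of that in microglia, against 15.7% in DMSO. Cd83 was at 0.539% of its microglial level in DMSO and 2.89% with T/S/Z, and Cd40 at 57.5% and 11.6%. Of 10 microglial markers tested in astrocytes, 7 fell with T/S/Z, and they were then at 0.177% to 3.42% of their microglial level (median 0.436%, 9 markers). In astrocytes Cd83 rose while these markers fell, and in microglia it also rose with T/S/Z, from 69.0 to 395 FPKM. The share of the astrocyte Cd83 reads that came from residual microglia was not tested. Cd86, which changed by 0.11 (95% interval -0.17 to 0.40), was at 2.70% of its microglial level.

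Cd80 was the member that went the other way. It stood at 3.49, 3.34 and 3.51 in DMSO and at 2.36, 2.24 and 2.45 with T/S/Z, a change of -1.10 (SE 0.091, adjusted p 0.000137, 3 of 3 pairs) with no overlap. With Nec-1s added it stood at 3.66, 3.74 and 3.69, a change of +1.35 from T/S/Z (SE 0.10, adjusted p 0.000669, 3 of 3 pairs), and all 3 libraries then lay above those of DMSO. Against DMSO, T/S/Z/N gave +0.25 (95% interval 0.04 to 0.45, adjusted p 0.0772). The interaction with the Nec-1s effect in unstimulated astrocytes was +1.23 (SE 0.13, adjusted p 0.000513).

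Markers of some other cells moved with Cd80 in the same libraries, and those of others did not. Of 8 fibroblast and mural cell markers tested, 6 fell with T/S/Z and 5 rose when Nec-1s was added, and their sum was 926 to 1120 FPKM in DMSO, 594 to 688 with T/S/Z and 800 to 842 with T/S/Z/N. Acta2 made up most of this sum and went from 592 to 542 FPKM with T/S/Z. Dcn went from 155 to 35.8 FPKM and Col1a1 from 112 to 27.3 with T/S/Z, and none of the 8 was at 0. The microglial markers summed to 105 to 114, 64.2 to 68.7 and 91.6 to 103 FPKM in the same 3 groups, of which 7 of 10 tested fell with T/S/Z and 3 rose with Nec-1s. Over the 5 endothelial markers listed, the sums were 19.2 to 20.9, 7.73 to 8.26 and 14 to 16.6 FPKM, but of 4 tested 2 fell and 1 rose with T/S/Z, and 1 rose and none fell with Nec-1s. Flt1 went against the sum, from 1.67 FPKM in DMSO to 3.07 with T/S/Z. Oligodendrocyte lineage markers summed to 176 to 202 FPKM in DMSO, 116 to 153 with T/S/Z and 122 to 131 with T/S/Z/N. Neuronal markers summed to 115 to 128, 100 to 115 and 105 to 108 FPKM in the same order. No marker of these lists passed when Nec-1s was added. The genes whose pattern was most like that of Cd80 over the 12 astrocyte libraries were Enpp2, Itm2a and Dcn (Pearson r of 0.989, 0.987 and 0.986). The part of these cells in the Cd80 result was not tested, and in bulk RNA fewer cells of a type cannot be told apart from less RNA per cell.

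**Figure D5:**
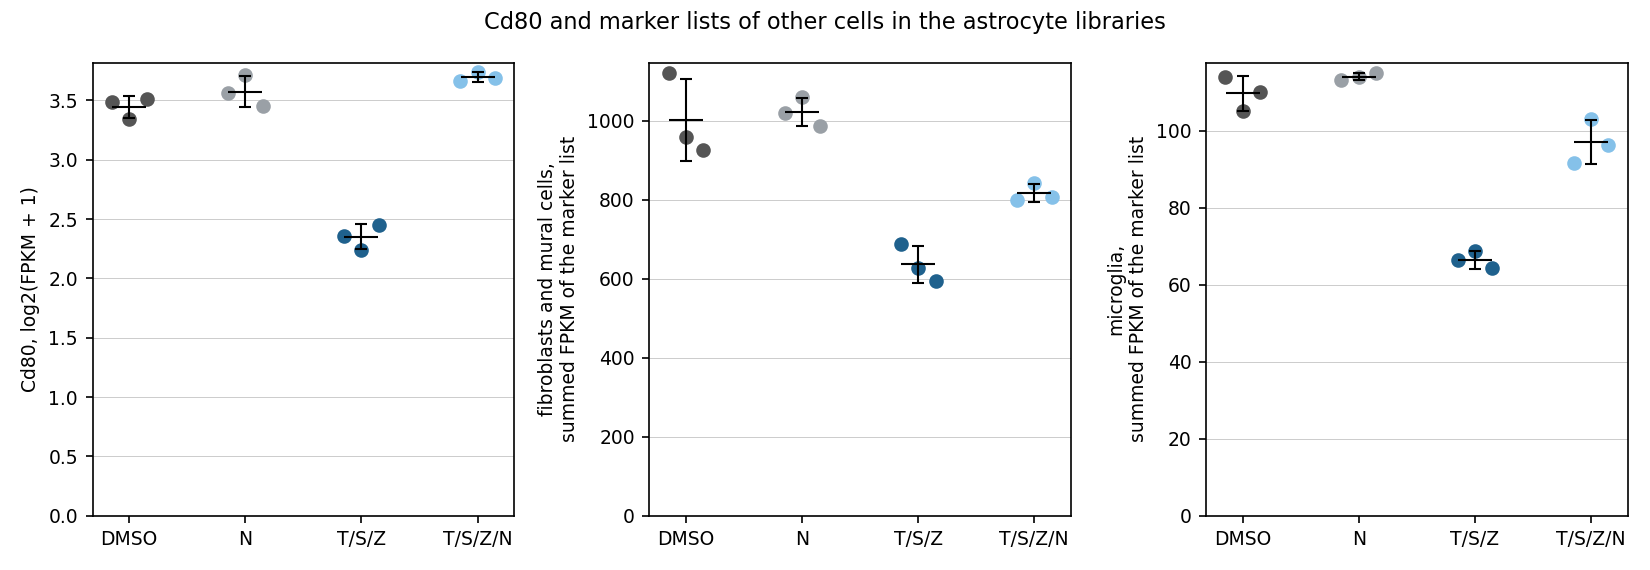
Cd80 as log2(FPKM + 1) (left) and the summed FPKM of the fibroblast and mural cell markers (middle) and of the microglial markers (right) in every astrocyte library, by treatment. Points are the 3 libraries of a treatment and black bars the mean and SD. All 3 measures are lowest in the T/S/Z libraries, where the fibroblast and mural sum is 594 to 688 FPKM against 926 to 1120 in DMSO. Acta2 makes up most of that sum, at 592 FPKM in DMSO and 542 with T/S/Z.

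Adding Nec-1s to T/S/Z lowered Cd83 and Cd274 in astrocytes and raised Cd80, where 3.1% of all genes passed (1.59% lower, 1.51% higher). Cd83 stood at 2.72, 2.73 and 2.59 with T/S/Z/N (-0.95, SE 0.12, adjusted p 0.00613) and Cd274 at 3.47, 3.41 and 3.44 (-0.78, SE 0.096, adjusted p 0.00558), all below the T/S/Z libraries. These losses were 30.0% and 23.9% of the rise. Cd44 changed by -0.39 (SE 0.09, adjusted p 0.0456) and Cd40 by -0.29 (SE 0.096, adjusted p 0.101), neither past the threshold. For the adhesion immunoglobulins no loss passed. Vcam1 changed by -0.10 (95% interval -0.33 to 0.13) and Icam1 by -0.05 (-0.25 to 0.16), which is 2.78% and 1.24% of the rise, beside a median of 30.7% over all 885 raised genes. All 6 raised members were still higher than DMSO with T/S/Z/N, where 9.08% of all genes passed (4.36% higher, 4.72% lower), in counts 604 and 653, or 686 and 474 after quantile normalization.

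Set against the effect of Nec-1s in unstimulated astrocytes, 3 members passed, Cd80 above and Cd83 (-0.92, SE 0.16, adjusted p 0.00832) and Cd274 (-0.66, SE 0.14, adjusted p 0.021) below, where 3.37% of all genes passed (1.76% positive, 1.61% negative). With a replicate left out, calls were lost while the differences kept their direction. Cd83 had -1.10 (adjusted p 0.0605) without replicate 1 and -0.86 (adjusted p 0.123) without replicate 2. Cd274 had -0.50, -0.77 and -0.71 (adjusted p 0.221, 0.124 and 0.0616) without replicates 1, 2 and 3 in turn, and its value with a pseudocount of 5, -0.57, was under the fold minimum. Over all genes the count of 466 fell to 90 without replicate 1 and to 99 without replicate 2.

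The genes nearest to each member in pattern were read as a description over libraries that share treatments, so that r mainly follows the group means. In microglia Icam1 ran with Sod2, St3gal1 and Clec4e (r of 0.999, 0.998 and 0.998 over 24 libraries), Cd40 with Slc31a1, Tnfaip2 and Cers6 (0.993, 0.993 and 0.991), and Vcam1 with Sept11, Bcl2a1b and Cdkn1a (0.990, 0.988 and 0.984). Cd83 ran with Dcbld2, Slc7a7 and Sdc4 (0.992, 0.992 and 0.991), and Cd274 with Pim1, Gadd45b and Mob3c (0.982, 0.981 and 0.980). Cd44 was nearest to Eno1, Picalm and Rai14 (0.966, 0.958 and 0.946), Cd86 to Clec7a, Oser1 and Pabpc1 (0.944, 0.941 and 0.929) and Cd80 to Pdcd6ip, Rybp and Nckap1l (0.864, 0.837 and 0.830). Among the members themselves, Cd40, Cd83, Cd274, Icam1 and Vcam1 correlated at 0.90 to 0.97 with each other, and Cd80, Cd86 and Cd44 at 0.68 to 0.80 with each other.

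In astrocytes Vcam1 ran with Gbp2, Gbp5 and Tlr2 (0.999, 0.998 and 0.998 over 12 libraries) and Icam1 with Ripk2, Gbp5 and Gbp4 (0.998, 0.998 and 0.997). Cd274 was nearest to Nfkb1, Bdkrb1 and Rsad2 (0.998, 0.998 and 0.997), Cd83 to Cxcl1, Tslp and Noct (0.998, 0.998 and 0.996), and Cd44 to Mapk6, Nfkb1 and Arhgef3 (0.998, 0.997 and 0.997). Cd40 was nearest to Rmdn3, Stx6 and Cxcl16 (0.989, 0.988 and 0.987) and Cd86 to Pum2, Dhx15 and Sec22a (0.915, 0.893 and 0.876). The 6 raised members correlated at 0.96 to 1.00 with each other, and Cd80 at -0.64 to -0.05 with the others.

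Other genes of the same pathways were counted from lists that hold none of the 8. Up to 2 genes per list and comparison are named, those with the largest change past the threshold, and their SE ran from 0.047 to 0.29 and their limma adjusted p up to 0.0411. Of the list genes tested, 5 in microglia (Cd200, Sele, Has1, Cemip and H2-Eb1) and 4 in astrocytes (Tnfsf4, Cd70, Sele and Selp) reached the low-value filter in no DMSO or Nec-1s library. These were tested only because stimulated libraries were high, so their rises, and their losses with Nec-1s, are a description. The counts of their lists include them, which is said again at each list. The counts stand beside shares over all genes of 11.1% higher and 13.3% lower (T/5z), 12.2% and 17.5% (T/S/Z), and 6.39% and 8.99% in astrocytes. With Nec-1s added these shares were 2.64% higher and 4.52% lower (T/5z), 5.35% and 6.72% (T/S/Z), and 1.51% and 1.59% in astrocytes. Among intracellular partners of CD40, T/5z raised 8 of 11 tested genes in microglia, T/S/Z raised 7, and 8 of 11 rose in astrocytes with T/S/Z. None of the 11 passed as lower in these 3 comparisons. The leading ones were Traf1, an adaptor of TNF receptors (+4.79 after T/5z, +5.10 after T/S/Z), and Tnfaip3, an inhibitor of NF-κB signalling (+3.41 and +4.55) in microglia, and Tnfaip3 (+4.01) and Birc3 (+3.31) in astrocytes. In microglia Nec-1s lowered 3 of 11 (T/5z) or 1 of 11 (T/S/Z), led by Tnfaip3 (-1.29 and -2.05), and raised 1 and 2, among them Map3k14, the kinase of the alternative NF-κB pathway (+0.69 and +0.88). In astrocytes no gene of this list passed with Nec-1s.

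Among the other B7-type and co-inhibitory ligands, 5 of 8 tested rose and 1 fell with T/5z in microglia, 4 rose and 1 fell with T/S/Z, and in astrocytes 3 of 7 rose and 2 fell. In microglia Cd200 was among those that rose with each stimulus, and it reached the low-value filter only in stimulated libraries. Icosl, the ligand of ICOS, rose by 3.79 with T/5z and by 1.93 with T/S/Z in microglia and by 1.25 in astrocytes. Vsir, which encodes the inhibitory ligand VISTA, fell in all 3 comparisons (changes of -2.34, -2.50 and -1.20). Nec-1s lowered Pvr by 1.12 on the log2 scale with either stimulus in microglia. In its presence Cd200, the ligand of an inhibitory receptor of myeloid cells, was lower with T/5z (-0.64) and, named after its value was seen, with T/S/Z (-0.70), and Icosl was higher with T/S/Z (+0.76). In astrocytes Lgals9 (+0.78) passed with Nec-1s. The list counts with Nec-1s were 0 higher and 3 lower in the T/5z setting, 2 higher and 2 lower in the T/S/Z setting, and 1 higher and 0 lower in astrocytes.

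Ligands of the TNF family that costimulate T cells were mostly too low to test in microglia, where 2 of 7 listed passed the filter. Of these, Tnfsf9 rose by 3.38 with T/5z and by 4.92 with T/S/Z and fell by 2.52 and 2.61 with Nec-1s, while Tnfsf13b, which encodes the B cell factor BAFF, fell by 0.82 with T/S/Z. In astrocytes all 4 tested rose, led by Tnfsf18 (+2.69) and Cd70 (+1.39), and 1 of them, Tnfsf4, was higher with Nec-1s (+0.64). Of the 4, Cd70 and Tnfsf4 reached the low-value filter only in stimulated libraries, so they were tested only through groups where they were high. Among genes of MHC class II presentation, 2 of 6 rose in microglia with each stimulus, H2-Ab1 (+1.27 and +0.81) and H2-Eb1 (+0.93 and +0.63), and both fell with T/5z/N (-0.98 and -0.65). Of these, H2-Eb1 reached the low-value filter only in stimulated libraries. In astrocytes Cd74 rose by 1.27 and Ctss, a protease of antigen processing, fell by 0.78, and Ctss was higher with Nec-1s (+0.63). Ctss is also a gene of microglia, whose markers moved the same way in these libraries, and the part of microglial RNA in it was not tested.

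Of the other adhesion immunoglobulins and selectins, 2 of 9 tested rose and 2 fell with each stimulus in microglia, and 2 of 11 rose and 2 fell in astrocytes. The 2 that rose in astrocytes were Sele and Selp, and Sele was 1 of the 2 in microglia with each stimulus. They reached the low-value filter only in stimulated libraries, so they were tested only through groups where they were high. Sele, which encodes E-selectin, rose in all 3 comparisons, by 1.53, 1.35 and 4.06, and was lowered by Nec-1s in all 3 (-1.38, -1.10 and -0.92). In DMSO microglia its mean adjusted log2 value was -0.15, below what the scale allows. Pecam1 fell with T/5z (-0.95) and T/S/Z (-1.13) in microglia, and Selp, P-selectin, rose by 2.53 in astrocytes. Jam2 (-0.92) was lower with Nec-1s and T/S/Z in microglia, and Alcam (+1.08) was higher in astrocytes.

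Integrin chains, some of which bind these ligands, moved in both directions. In microglia 4 of 9 rose and 2 fell with each stimulus. With T/5z the leading ones were Itga4, a chain of the VCAM1 receptor (+2.89), and Itga6 (-1.80), and with T/S/Z they were Itga5 (+2.03) and Itgb5 (-1.54). Itgav was lower with Nec-1s in both settings (-1.27 and -0.99), and so was Itga5 with T/S/Z (-0.86). In astrocytes 2 of 8 rose, Itga5 (+1.98) and Itgav (+0.82), and Itga5 changed by -0.78 with Nec-1s. Among hyaluronan genes and partners of CD44, 5 of 9 rose in microglia with each stimulus and 1 fell, with T/5z. Those that rose included Has1 with each stimulus and Cemip with T/5z, which reached the low-value filter only in stimulated libraries. Ezr, which links CD44 to actin, led (+2.28 and +3.07), with Hyal1 (-0.99) after T/5z and the hyaluronan synthase Has1 (+1.56) after T/S/Z. Nec-1s lowered Ezr (-0.83 and -1.25) and Has1 (-0.73 and -1.33). In astrocytes 2 of 11 rose, the hyaluronan synthase Has2 (+3.20) and Cemip (+1.17), and none passed with Nec-1s.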

How the data were processed

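Reads were aligned and quantified by the authors with OmicSoft Array Studio. Their deposited values are log2(FPKM + 1) per gene, which had been scaled so that the 75th percentile was nearly equal in all libraries (4.11 to 4.16 in microglia, 4.73 to 4.74 in astrocytes). Exon lengths, symbols and GRCm38 coordinates came from the annotation the authors deposited. For microglia, per-gene means of replicates 1 to 3 over the treatments equalled those of replicate 4 (largest difference 6.67e-05), which left values below 0 in 18 libraries and is not described in the sources used here. Aligner and annotation release are not given in the sources used here.

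Groups were taken from the sample labels. For each comparison limma 3.58.1 (R 4.3.3) was fitted to the libraries compared, with an intensity trend and the replicate number as a block, as the study used a paired test. Genes with a log2 value of at least 1 in at least 4 microglial or 3 astrocyte libraries were tested, 2-sided, with Benjamini-Hochberg adjustment, an adjusted p threshold of 0.05 and a fold change over 1.5. Differences between Nec-1s effects were fitted as interactions. Scripts were tested on simulated data. The share taken back is the loss with Nec-1s divided by the rise over DMSO on the log2 scale, and its range was taken over replicate numbers. Approximate reads were derived from the steps between low values (median 83.3% of low astrocyte values within 0.1 of a whole read), in replicate 4 only for microglia. Depth is otherwise unknown.

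The 8 genes, the pathway lists and the marker lists were chosen with earlier results of these data known. The rule for named genes took all 8 members, the up to 2 genes of each pathway list with the largest change past the threshold, and the 3 genes with the highest Pearson r to each member. Alternatives were another pseudocount, low-value filter, scaling, variance model, set of libraries, threshold and block, and each replicate left out.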

Additional observations from a re-analysis of the deposited data

Results flagged for a closer look

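Among the 48 groups of 4 microglial libraries, 1 held a library apart from the others by Dixon's test. This was Cd80 with T/5z/N, where the highest library stood at 1.36 and the others at 1.14 to 1.17. Chance alone flags about 1 in 20 such groups.

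The effect of Nec-1s differed between stimuli in microglia for Cd40 (1.04, T/S/Z minus T/5z) and Vcam1 (0.59). Against its effect in unstimulated microglia, Nec-1s differed with T/5z for Cd40 (-1.70), Vcam1 (-1.60), Cd83 (-0.92), Icam1 (-0.73) and Cd44 (-0.71). The corresponding differences with T/S/Z were those of Cd83 (-1.03), Vcam1 (-1.01), Cd44 (-0.75) and Cd40 (-0.66). In astrocytes they were those of Cd80 (1.23), Cd83 (-0.92) and Cd274 (-0.66). Each was tested as an interaction in limma, in 4 of 4 microglial or 3 of 3 astrocyte pairs.

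In every replicate pair Cd80 changed in opposite directions in the cell types, with -1.10 in astrocytes and 0.50 in microglia after T/S/Z, and with 1.35 and -0.33 when Nec-1s was added. The Cd86 pairs also had opposite signs with Nec-1s, with mean changes of 0.10 in astrocytes, whose 95% interval of -0.12 to 0.33 includes 0, and -0.30 in microglia. The difference between cell types was not tested, since the tables were normalized separately, and the microglial changes of both genes were under the fold minimum.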

How the results depend on the processing

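Of 853 alternative values for the 63 member changes past the threshold, 817 kept direction and call and 36 lost the call with the direction kept. Another 6 values, of Cd80, Cd86, Cd274 and Icam1 in microglia, gained a call. With a fold change over 2, member counts went from 5 to 2 for T/5z/N against T/5z, from 3 to 1 for T/S/Z/N against T/S/Z in astrocytes, and in the interactions to 1 (T/S/Z minus T/5z), 2 (T/5z minus unstimulated), 2 (T/S/Z minus unstimulated) and 1 (astrocytes). When genes had to average a log2 value of 3 or more, only 4 astrocyte members were tested, and 4 passed for T/S/Z, 1 for T/S/Z/N against T/S/Z, 3 for T/S/Z/N against DMSO and 1 in the interaction. The interaction T/S/Z minus T/5z fell from 2 members to 1, by the loss of Vcam1, with quantile normalization, libraries centred on their median, all groups in the fit, or no replicate block, and held 1 to 2 with a replicate left out. Its other member, Cd40, kept its call throughout. Quantile normalization left 2 in the interaction T/S/Z minus unstimulated. The astrocyte interaction held 1 to 2 of 3 members with a replicate left out.

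The replicate block follows the study's paired test. Without the block, member counts in the other 15 comparisons were as before. In astrocytes, deviations of same-numbered libraries correlated at -0.14 to 0.41, so a pairing was not shown. In microglia they correlated at -0.46 to 0.26, but equal replicate means force such deviations to cancel over treatments, and nothing about pairing can be read from this.

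Directions that reversed belonged to changes that had not passed. Quantile normalization gave 0.01 for Cd80 (T/5z/N against DMSO), 0.08 for Cd83 and 0.14 for Cd44 (T/S/Z minus T/5z), and 0.01 for Vcam1 (astrocyte interaction), and median centring gave -0.02 for Cd86 (T/5z minus unstimulated). With a replicate left out, the Nec-1s effect in unstimulated microglia ran from -0.01 to 0.13 for Cd80, -0.01 to 0.04 for Cd83 and -0.10 to 0.04 for Vcam1. In unstimulated astrocytes it ran from -0.11 to 0.09 for Cd86, -0.14 to 0.05 for Cd83, -0.16 to 0.00 for Vcam1 and -0.05 to 0.10 for Cd44. Cd80 with T/5z ran from -0.01 to 0.13, and the interactions from -0.10 to 0.02 for Cd44 (T/S/Z minus T/5z) and -0.02 to 0.08 for Cd86 (T/5z minus unstimulated).

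Over all genes, a fold change over 2, a pseudocount of 5 or a mean log2 value of 3 or more lowered counts by more than 1.5 times in most comparisons. For T/5z 2563 became 1077, 1484 and 1463, for T/S/Z 3118 became 1202, 1633 and 1705, and for astrocyte T/S/Z 2130 became 766, 985 and 1094. For T/5z/N against T/5z 754 became 182, 314 and 385, for T/S/Z/N against T/S/Z 1270 became 335, 514 and 628, and in astrocytes 429 became 107, 180 and 225, or 274 without replicate 2 and 761 without replicate 3. The astrocyte interaction went from 466 to 90 and 99 without replicates 1 and 2. The causes were not tested.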
